A study of Mus musculus with 24 samples.

Results

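The data describe 10 genes of transforming growth factor beta (TGF-beta) and bone morphogenetic protein (BMP) signalling in mouse kidney after ischemia. They were picked by symbol from a deposited table of 40750 genes: the ligand genes Tgfb1, Tgfb2, Tgfb3, Bmp7 and Inhba, the receptor genes Tgfbr1 and Tgfbr2, the signal transducer Smad3, the inhibitor Smad7 and the target gene Tgfbi. All 10 were present in the table. At least 1 RPKM (reads scaled by transcript length and by library size) in at least 3 libraries was needed for a test, which 13721 genes and 9 of the 10 met. Tgfb1 did not, and its values are given with no test.

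TGF-beta ligands are secreted in a latent form that has to be released, often by integrins. They bind the type II receptor Tgfbr2, which activates the type I receptor Tgfbr1, and this phosphorylates Smad2 and Smad3. BMP ligands such as Bmp7 signal through their own receptors to Smad1, Smad5 and Smad9, and the inhibitory Smads Smad6 and Smad7 dampen signalling. In the kidney, TGF-beta signalling is known for its part in fibrosis after injury, and Bmp7 for nephron formation and for opposing TGF-beta.

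RNA came from 12 male mice of mixed background aged 8 to 10 weeks, all heterozygous for Kim1-GCE and EGFPL10a. Kim1-GCE is by its name driven by Kim1 (Havcr1), a gene switched on in injured proximal tubule, and tags ribosomes with EGFP-L10a in cells where its Cre was active. The mice were given tamoxifen 6 hours before and 24 hours after surgery, per the series' design text. Both renal pedicles were clamped for 20 minutes, with kidneys taken at day 2, day 7 or day 14, or sham surgery was done with no clamp. Each of these 4 groups had 3 mice. A pull-down of homogenate against GFP gave bound RNA, and what remained gave unbound RNA, which the labels take as total kidney, so 24 libraries formed 8 groups of 3. How much untagged RNA the pull-down carried over was not tested.

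The depth inferred for each library, in units of 1e6 reads, ran from 15.72 to 24.65. Havcr1 was at 2.87 ± 2.38 RPKM (SD, n = 3) in sham bound libraries and at 125 ± 80.9, 170.4 ± 67.2 and 36.4 ± 16.1 RPKM at day 2, day 7 and day 14. Its unbound means were 10.8, 125.9, 72.6 and 24.5 RPKM in the same order. Between fractions, limma without pairing called 0 of 6 markers of injured proximal tubule at day 2, day 7 or day 14. It called 1.68%, 2.35% and 0.816% of all tested genes there, so 0 of 6 says little about enrichment. In sham it called 1 of 6, higher in bound, where 14.6% of all tested genes were higher and 12.9% lower. In that group, 6 of 8 proximal tubule markers were lower in bound than in unbound RNA. Podocyte (6 of 6) and principal cell markers (3 of 4 tested) were higher in bound. The sham bound libraries thus do not have the marker profile of enriched proximal tubule. Day 14 mouse 3, a name used here for library number 3 of both fractions, differed from the rest of its group. Across genes, its bound library had the lowest r with its group of all 24 (0.901), its unbound library had 0.941, and its 8 macrophage markers summed to 1731 and 1760 RPKM against 113 to 365.6 in the other day 14 libraries. The median gene shifted against sham by a log2 fold between 0.13 and 0.22, and between -0.03 and 0.01 after median-ratio rescaling. Of all calls against sham, 67.0% were higher, compared with 47.4% after that rescaling. In whole kidney and pull-down RNA, fewer cells of a type and less RNA per cell cannot be told apart.

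Promoters are shown for the ligand gene that rose late (Tgfb2) and for the pair that rose together in bound RNA at day 2 (Tgfbr1 and Tgfbi). Of the 10 genes, 7 matched the RefSeq promoter table (GRCm38.p6) by symbol, with 8 entries. Bmp7, Tgfb3 and Smad7 had no entry. Each line gives the 250 bases before the annotated start, 5′ to 3′ on the gene's strand. Capitals mark CAGAC, a Smad-binding element, GGCGCC, a GC-rich element bound by Smad proteins, and TGANTCA, an AP-1 element, on either strand, so that CAGAC on the other strand reads GTCTG. The Tgfb2 stretch is chr1:186705990-186706239 on the minus strand, that of Tgfbr1 (the first of its 2 starts) chr4:47352972-47353221 on the plus strand, and that of Tgfbi chr13:56609336-56609585 on the plus strand.
Tgfb2: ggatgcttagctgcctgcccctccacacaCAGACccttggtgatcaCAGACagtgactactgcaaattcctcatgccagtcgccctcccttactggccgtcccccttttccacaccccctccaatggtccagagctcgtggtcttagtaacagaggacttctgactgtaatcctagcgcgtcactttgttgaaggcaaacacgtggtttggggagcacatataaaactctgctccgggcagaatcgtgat
Tgfbr1: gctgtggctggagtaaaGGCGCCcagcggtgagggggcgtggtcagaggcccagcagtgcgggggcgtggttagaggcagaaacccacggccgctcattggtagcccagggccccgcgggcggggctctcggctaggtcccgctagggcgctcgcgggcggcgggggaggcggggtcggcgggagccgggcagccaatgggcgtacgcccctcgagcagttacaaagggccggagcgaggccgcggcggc
Tgfbi: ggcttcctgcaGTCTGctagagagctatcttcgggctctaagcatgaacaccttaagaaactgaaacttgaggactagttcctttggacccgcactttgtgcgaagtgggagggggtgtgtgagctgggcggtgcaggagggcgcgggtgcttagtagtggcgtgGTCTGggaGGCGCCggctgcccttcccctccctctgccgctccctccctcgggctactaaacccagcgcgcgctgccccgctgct
The Tgfb2 stretch holds 2 CAGAC, that of the first Tgfbr1 start holds 1 GGCGCC, and that of Tgfbi holds 2 CAGAC and 1 GGCGCC. None of the 3 holds TGANTCA, and no occurrence overlaps another. The stretch before the second Tgfbr1 start (chr4:47385966-47386215, plus strand), not printed, holds 1 CAGAC and 0 GGCGCC. Of the other genes with an entry, also not printed, Tgfbr2 holds 1 CAGAC and 0 GGCGCC. Tgfb1, Smad3 and Inhba hold 0 of either, and TGANTCA is in no stretch of a member. Among 32851 promoters of the same length, 42.2% hold CAGAC, 9.59% hold GGCGCC and 6.75% hold TGANTCA. These are letter matches in one window, with no measurement of binding.

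The words rose and fell mark an adjusted p under 0.05, from limma on log2(RPKM + 0.5) with Benjamini-Hochberg adjustment over all 13721 tested genes. In bound RNA against sham, 2 of the 9 tested members rose at day 2 and 0 fell, where 19.8% of all tested genes were called (13.3% higher, 6.48% lower). At day 7, 1 rose and 2 fell (22.7% of all genes, 15.2% higher and 7.55% lower), and at day 14, 1 rose and 1 fell (13.3%, 8.71% higher and 4.58% lower). The members' median log2 fold was 0.68, 0.73 and 0.49 at these times, beside 0.16, 0.13 and 0.18 for all tested genes. These counts of 2, 3 and 2 of 9 lie near those shares, and nothing is read from them about the set. Among all 10 members, untested Tgfb1 included, libraries did not overlap with sham for 4 above and 2 below it at day 2. This held for 25.5% of all tested genes in either direction. The counts were 5 and 2 at day 7 (39.3%) and 3 and 1 at day 14 (22.6%). Tgfb1 is among those above sham at day 7 and day 14, though not among the tested genes behind the shares. At day 14 it was above by 0.1861 against 0.1852 RPKM only.

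In unbound RNA against sham, 2 members rose at day 2 and 0 fell, where 14.8% of all genes were called (9.76% higher, 5.04% lower). At day 7, limma called 0 of 9 (1.09% of all genes, 0.911% higher and 0.182% lower), and at day 14 also 0 of 9 (1.23%, 0.984% higher and 0.248% lower), with 3 and 4 members at an unadjusted p under 0.05. The members' median log2 folds were 0.47, 0.65 and 0.78, beside 0.20, 0.18 and 0.22 for all genes. Among all 10 members, libraries did not overlap with sham for 4 above and 0 below at day 2 (44.6% of all tested genes in either direction). The counts were 5 and 1 at day 7 (38.1%), with untested Tgfb1 among those above, and 3 and 0 at day 14 (35.9%). From day 2 to day 7, 1 member rose in bound RNA (7.09% of all genes called, 3.56% higher and 3.53% lower) and 1 in unbound RNA (3.51%, 1.69% higher and 1.82% lower), in both fractions Tgfb2. From day 7 to day 14, limma called 0 members in either fraction, and 0 had an unadjusted p under 0.05. Over all genes it called 0 in bound RNA and 1 in unbound RNA there, a lower one (0.00729%). All comparisons with sham in a fraction share the 3 sham libraries of that fraction.

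**Figure D1:**
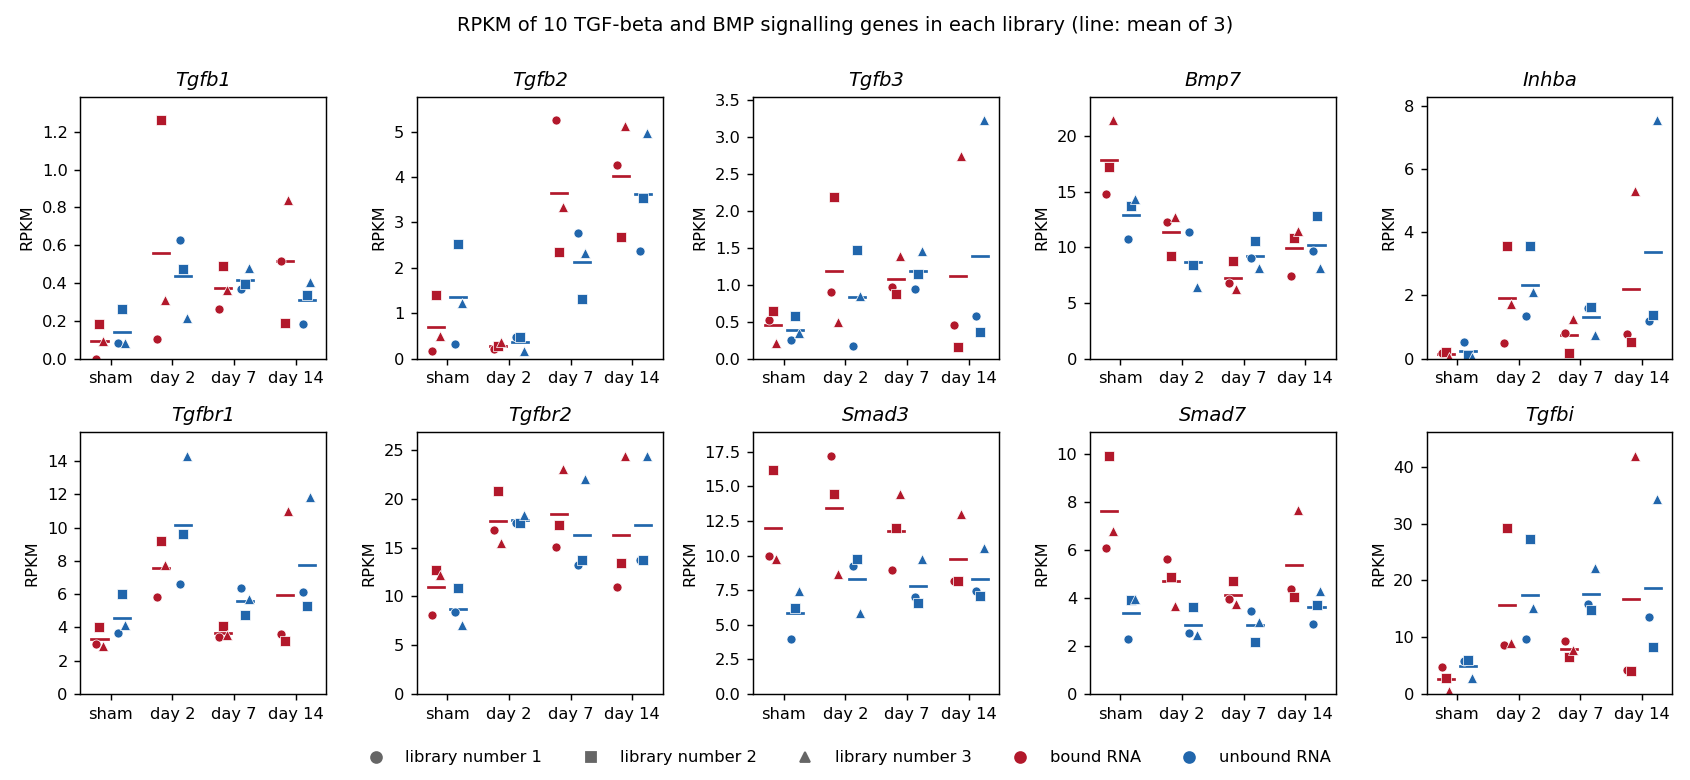
RPKM of the 10 genes (y axis, linear from 0, a scale of its own for each gene) in sham and at day 2, day 7 and day 14 (x axis), with bound libraries in red and unbound in blue, 1 symbol a library and a line at the mean of 3. Tgfb2 is lowest at day 2 and high at day 7 and day 14, Bmp7 is highest in sham bound RNA, and the day 14 triangles of Tgfb3, Inhba, Tgfbr1 and Tgfbi stand above the other libraries of their groups.

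Among the ligands, Tgfb2 had the clearest time course. In bound RNA it was at 0.166, 1.404 and 0.489 RPKM in the sham libraries and at 0.220, 0.273 and 0.362 RPKM at day 2. It then stood at 5.25, 2.34 and 3.35 RPKM at day 7 and at 4.27, 2.68 and 5.12 RPKM at day 14. Every day 7 and day 14 bound library was above every sham and day 2 bound library. Tgfb2 rose against sham by a log2 fold of 1.88 at day 7 (SE 0.43, adjusted p = 0.0041, limma) and of 2.03 at day 14 (SE 0.43, adjusted p = 0.0054, limma). From day 2 to day 7 it rose by 2.34 on the log2 scale (SE 0.43, adjusted p = 0.0022, limma). These 3 calls held without any 1 library. At day 14 the fold was 1.85 (adjusted p = 0.010, limma) without mouse 3 in either fraction, and its adjusted p was 0.11 when limma was fitted to the day 14 and sham bound libraries alone. Macrophage markers were also higher at these times in bound RNA, where 5 of 8 rose at day 7 and 4 of 8 at day 14. Of all tested genes, 15.2% and 8.71% rose there. At day 2, 2 of the 8 rose (13.3% of all tested genes), with summed levels of 83.2 to 232.1 RPKM against 37.1 to 57.9 in sham. The part of macrophages in the rise of Tgfb2 was not tested.

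In unbound RNA the group mean of Tgfb2 was also lowest at day 2. The sham libraries held 0.318, 2.54 and 1.23 RPKM, and the day 2 libraries 0.465, 0.471 and 0.168 RPKM. Day 7 libraries held 2.76, 1.31 and 2.32 RPKM, and day 14 libraries 2.37, 3.53 and 4.98 RPKM. Every day 7 library was above every day 2 library, while sham overlapped with both times. Tgfb2 rose from day 2 to day 7 (log2 fold 1.58, SE 0.43, adjusted p = 0.042, limma). This call was lost without any 1 of the 6 libraries, with adjusted p from 0.068 to 0.17. Against sham the log2 folds were 0.65 at day 7 (adjusted p = 0.49, limma) and 1.29 at day 14 (adjusted p = 0.11), which did not pass. A share of 2.14% of the annotated Tgfb2 exon bases overlaps Gm29491 on the opposite strand, and the sources used here do not say whether counting used strand.

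Bound and unbound libraries of the same number, taken as the same mouse, were compared for Tgfb2. In sham, bound RNA was lower than unbound RNA in 3 of 3 numbers, and at day 7 it was higher in 3 of 3. At day 14 it was higher in 2 of 3. The change against sham at day 7 was larger in bound than in unbound RNA by 1.23 on the log2 scale (SE 0.60, adjusted p = 0.30, limma), where 0.146% of all genes were called (0.0583% higher, 0.0875% lower). It did not pass without pairing and passed with the library number as a block (SE 0.34, adjusted p = 0.0493). The same difference at day 14 was 0.73 (adjusted p = 0.55, limma).

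**Figure D2:**
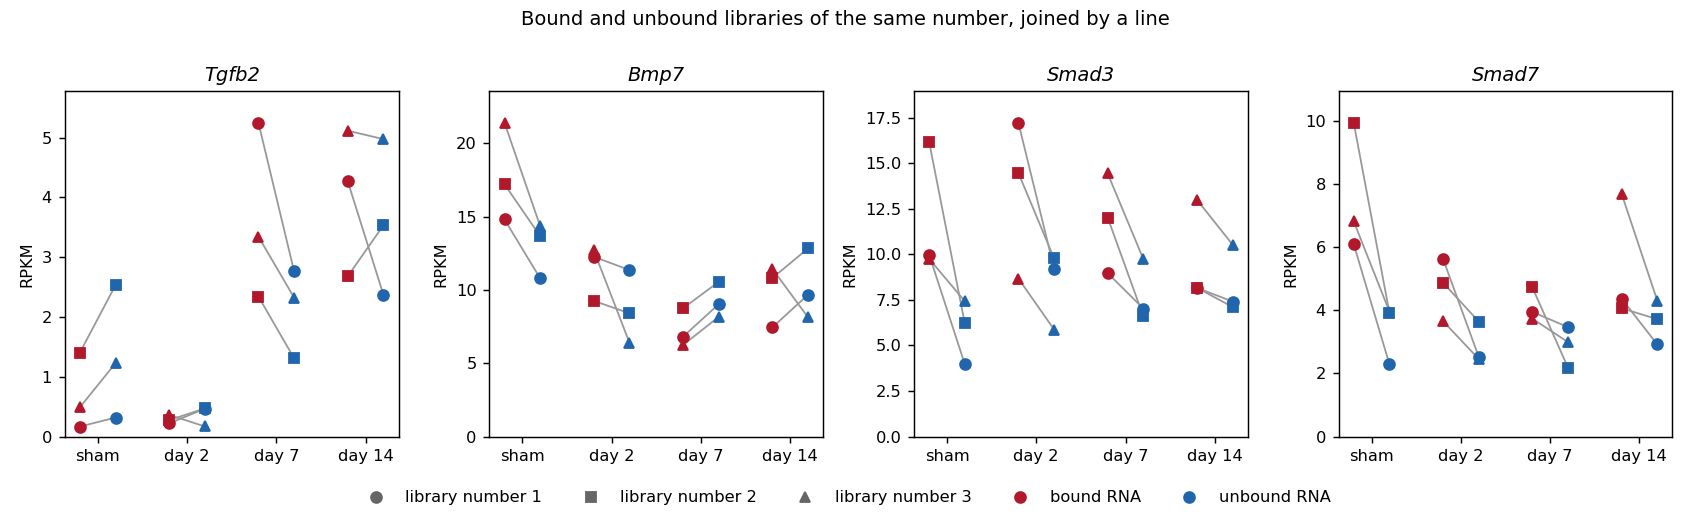
RPKM of Tgfb2, Bmp7, Smad3 and Smad7 (y axis, linear from 0) by time (x axis), with the bound (red) and unbound (blue) library of the same number joined by a line. For Tgfb2 the 3 lines run up from bound to unbound in sham and down at day 7, and for Smad7 all 12 run down.

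Tgfb1, the best known ligand of the family, was low in these libraries. It was at 0, 0.185 and 0.0951 RPKM in sham bound libraries and at 0.102, 1.26 and 0.312 RPKM at day 2. The only value over 1 RPKM was that of mouse 2 at day 2. Bound libraries held 0.262, 0.489 and 0.362 RPKM at day 7 and 0.518, 0.186 and 0.839 RPKM at day 14. The day 7 bound libraries were above all sham bound ones, which held for 24.9% of all tested genes. At day 14 the lowest bound library stood level with the highest sham bound one (0.186 and 0.185 RPKM, about 20 and 22 reads). The day 2 libraries overlapped with sham. Unbound libraries ran from 0.0810 to 0.260 RPKM in sham and from 0.185 to 0.630 RPKM after injury. With exon lengths of a later annotation these values stand for about 0 to 108 reads a library, a rough figure, since few of them came to whole reads.

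Tgfb3, the third TGF-beta ligand, was called in none of the 17 comparisons. Bound libraries held 0.515, 0.649 and 0.216 RPKM in sham and 0.897, 2.18 and 0.488 RPKM at day 2. They held 0.966, 0.873 and 1.39 RPKM at day 7, all above sham, and 0.448, 0.155 and 2.74 RPKM at day 14. The day 7 libraries lay close together, and those of day 14 spread from the lowest to the highest bound value. Log2 folds against sham were 0.72 at day 2 (adjusted p = 0.38, limma) and 0.73 at day 7 (adjusted p = 0.36). In unbound RNA the day 7 libraries (0.943, 1.15 and 1.46 RPKM) were all above the sham libraries (0.245, 0.576 and 0.346 RPKM), with a log2 fold of 0.93 (adjusted p = 0.44, limma). The day 14 unbound libraries held 0.573, 0.359 and 3.22 RPKM, and the log2 fold against sham was 0.78 with mouse 3 and 0.13 without it. Of the annotated Tgfb3 exon bases, 4.82% overlap Gm37804 and 7.60% overlap Gm48008 on the opposite strand.

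Bmp7, the BMP ligand of the set, was highest in sham bound RNA. It was at 14.8, 17.2 and 21.4 RPKM in sham, at 12.3, 9.25 and 12.7 RPKM at day 2, at 6.81, 8.74 and 6.24 RPKM at day 7 and at 7.44, 10.8 and 11.4 RPKM at day 14. Every library after injury was below every sham bound library, and day 7 was lowest. Bmp7 fell by 1.23 on the log2 scale at day 7 (SE 0.23, adjusted p = 0.0013, limma) and by 0.82 at day 14 (SE 0.23, adjusted p = 0.025, limma). The day 7 call held without any 1 library, and that of day 14 was lost without sham bound replicate 2 (adjusted p = 0.061), sham bound replicate 3 (0.065) or day 14 bound replicate 1 (0.12). At day 2 the log2 fold was -0.62 (adjusted p = 0.066, limma), and it was -0.83 (adjusted p = 0.022) after median-ratio rescaling.

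In unbound RNA Bmp7 held 10.8, 13.7 and 14.3 RPKM in sham, and group means of 8.71 ± 2.49, 9.25 ± 1.21 and 10.2 ± 2.40 RPKM (SD, n = 3) followed at day 2, day 7 and day 14. All day 7 libraries were below sham, and day 2 and day 14 overlapped with it. No comparison passed in this fraction: the log2 fold at day 2 was -0.57 (adjusted p = 0.11, limma), and -0.78 (adjusted p = 0.036) after median-ratio rescaling. The difference between fractions in the change against sham was not called at any time. Markers of other nephron cells and of endothelium also fell in bound RNA. At day 7, 5 of 6 podocyte markers and 3 of 4 tested principal cell markers fell, with summed levels of 28.7 to 40.5 RPKM against 63.3 to 192.4 in sham for podocytes and 62.6 to 121 RPKM against 125.9 to 1181 for principal cells. At that time 2 of 4 distal convoluted tubule, 2 of 5 thick ascending limb, 2 of 5 intercalated cell and 2 of 8 endothelial markers fell as well, and 1 thick limb marker rose. At day 14, 1 of 6 podocyte and 1 of 4 principal cell markers fell. Of all tested genes, 7.55% fell in bound RNA at day 7 and 4.58% at day 14. The part of these cells in the fall of Bmp7 was not tested.

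Inhba encodes the beta A subunit of activin A and of inhibin A, and it was low in sham and variable after injury. Unbound libraries held 0.523, 0.0960 and 0.0538 RPKM in sham and 1.36, 3.57 and 2.10 RPKM at day 2. They held 1.59, 1.63 and 0.756 RPKM at day 7 and 1.19, 1.38 and 7.55 RPKM at day 14. Every unbound library after injury was above every sham unbound library. Inhba rose at day 2 (log2 fold 1.95, SE 0.63, adjusted p = 0.040, limma), a call lost without any of the 5 libraries other than day 2 unbound replicate 1 (adjusted p from 0.052 to 0.18). The folds at day 7 (1.35, adjusted p = 0.31, limma) and day 14 (2.08, adjusted p = 0.089) did not pass, and the latter was 1.36 without mouse 3.

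In bound RNA Inhba was at 0.176, 0.218 and 0.0614 RPKM in sham and at 0.482, 3.58 and 1.73 RPKM at day 2. It was at 0.804, 0.177 and 1.25 RPKM at day 7 and at 0.790, 0.529 and 5.30 RPKM at day 14. All libraries of day 2 and day 14 were above sham, and 1 of day 7 was not. Log2 folds of 1.68 at day 2 (adjusted p = 0.064, limma) and 1.61 at day 14 (adjusted p = 0.090) did not pass. Without mouse 3 the day 14 fold was 0.83. The day 2 fold passed with a pseudocount of 0.1 in place of 0.5 (2.70, adjusted p = 0.028, limma) and without day 2 bound replicate 1 (2.22, adjusted p = 0.017).

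**Figure D3:**
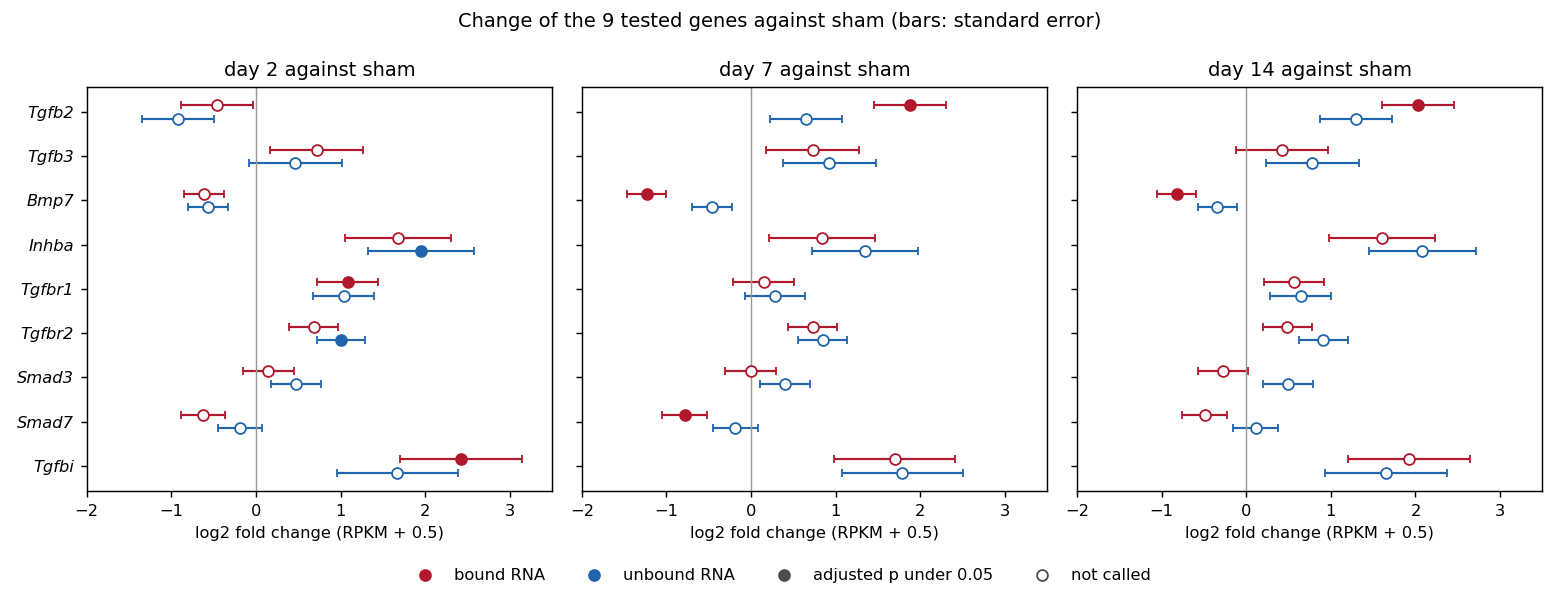
Log2 fold change of the 9 tested genes against sham (x axis, on the log2(RPKM + 0.5) scale) at day 2, day 7 and day 14, for bound (red) and unbound (blue) RNA, with bars of 1 standard error and filled points where the adjusted p was under 0.05. Filled points are Tgfbr1 and Tgfbi (bound) with Inhba and Tgfbr2 (unbound) at day 2, then Tgfb2, Bmp7 and Smad7 (bound) at day 7, and Tgfb2 and Bmp7 (bound) at day 14.

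The type I receptor gene Tgfbr1 had its highest bound mean at day 2. In bound RNA it was at 3.00, 3.995 and 2.90 RPKM in sham and at 5.83, 9.21 and 7.76 RPKM at day 2. By day 7 it was at 3.43, 4.10 and 3.51 RPKM, within the reach of sham. All 3 day 2 libraries were above all sham and day 7 libraries. Tgfbr1 rose at day 2 against sham (log2 fold 1.08, SE 0.36, adjusted p = 0.038, limma). The call was lost without sham bound replicate 1 (adjusted p = 0.11), 2 (0.052) or 3 (0.076) and without day 2 bound replicate 2 (0.15) or 3 (0.10). It was also lost when limma was fitted to the day 2 and sham bound libraries alone (adjusted p = 0.088). From day 2 to day 7 the log2 fold of -0.94 (adjusted p = 0.12, limma) did not pass.

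At day 14 the Tgfbr1 bound libraries held 3.62, 3.16 and 10.99 RPKM, so that mouse 3 alone was above sham. The log2 fold against sham was 0.57 (adjusted p = 0.30, limma) with it and 0.04 without it. In unbound RNA Tgfbr1 was at 3.65, 5.99 and 4.12 RPKM in sham and at 6.63, 9.60 and 14.3 RPKM at day 2. These groups did not overlap, which held in the same direction for 31.2% of all tested genes. The log2 fold of 1.03 (adjusted p = 0.056, limma) did not pass. It passed when limma was fitted to these groups alone (adjusted p = 0.041), so the call at day 2 is not particular to bound RNA. Day 7 and day 14 unbound libraries ran from 4.76 to 6.38 and from 5.29 to 11.8 RPKM.

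Tgfbr2, the type II receptor gene, had the highest mean RPKM of the 10 genes over all libraries, 15.5. In unbound RNA it was at 8.37, 10.8 and 7.05 RPKM in sham and at 17.5, 17.5 and 18.4 RPKM at day 2, the tightest group. All unbound libraries of day 7 (13.2, 13.7 and 22.0 RPKM) and day 14 (13.7, 13.8 and 24.4 RPKM) were above sham as well. Tgfbr2 rose at day 2 (log2 fold 1.01, SE 0.29, adjusted p = 0.022, limma). The call was lost without sham unbound replicate 1 (adjusted p = 0.066) or 3 (0.10) and without day 2 unbound replicate 2 (0.075) or 3 (0.065). Log2 folds of 0.84 at day 7 (adjusted p = 0.16, limma) and 0.91 at day 14 (adjusted p = 0.098) did not pass.

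In bound RNA Tgfbr2 was at 8.06, 12.8 and 12.2 RPKM in sham, at 16.9, 20.8 and 15.5 RPKM at day 2 and at 15.1, 17.3 and 23.1 RPKM at day 7. The libraries of both times were above sham, which held for 16.6% and 24.9% of all tested genes. The folds of 0.68 at day 2 (adjusted p = 0.099, limma) and 0.73 at day 7 (adjusted p = 0.073) did not pass. At day 14 the libraries held 11, 13.4 and 24.4 RPKM and overlapped with sham.

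Smad3, which carries the TGF-beta signal to the nucleus, was higher in bound than in unbound RNA. In sham it was at 9.98, 16.2 and 9.75 RPKM in bound RNA and at 3.96, 6.20 and 7.42 RPKM in unbound RNA, with no overlap. At day 2, bound RNA held 17.2, 14.5 and 8.67 RPKM and unbound RNA 9.21, 9.77 and 5.87 RPKM. At day 7 the values were 8.97, 12.01 and 14.4 RPKM against 7.02, 6.59 and 9.73 RPKM, and at day 14 they were 8.15, 8.16 and 12.99 against 7.41, 7.10 and 10.5 RPKM. The bound library was the higher one in every one of the 12 number pairs. No comparison of Smad3 between times was called.

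Bound exceeded unbound RNA for Smad3 in sham by 0.97 on the log2 scale (SE 0.30, adjusted p = 0.019, limma). This call was lost without sham bound replicate 2 (adjusted p = 0.11) or sham unbound replicate 1 (0.11). It was also lost when limma was fitted to the sham groups alone (adjusted p = 0.061). With the library number as a block the sham difference passed (adjusted p = 0.0013, limma). At day 2 the difference was 0.65 (adjusted p = 0.26, limma), which passed with the library number as a block (adjusted p = 0.047). With the block it was 0.57 at day 7 (adjusted p = 0.070, limma) and 0.20 at day 14 (adjusted p = 0.59), which did not pass.

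Smad7, the inhibitor that TGF-beta signalling itself induces, was also higher in bound RNA of sham. It was at 6.09, 9.94 and 6.82 RPKM there and at 2.29, 3.92 and 3.96 RPKM in unbound RNA, with no overlap. The difference was 1.06 on the log2 scale (SE 0.27, adjusted p = 0.0056, limma) and held without any 1 library. With the library number as a block its adjusted p was 0.0015 (limma). Over all tested genes, 27.6% were called in this comparison (14.6% higher, 12.9% lower in bound), and 2 of the 9 tested members were, Smad3 and Smad7. At day 2, day 7 and day 14 limma called 0 members between fractions, with 2, 0 and 0 at an unadjusted p under 0.05 and 1.68% (1.17% higher, 0.503% lower), 2.35% (1.03% and 1.32%) and 0.816% (0.343% and 0.474%) of all genes called. With the library number as a block, 9.50%, 11.4% and 2.62% of all genes were called at these times.

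In bound RNA Smad7 libraries held 5.63, 4.88 and 3.66 RPKM at day 2, 3.95, 4.73 and 3.74 RPKM at day 7 and 4.37, 4.06 and 7.70 RPKM at day 14. All of day 2 and day 7 were below sham. Smad7 fell at day 7 by 0.78 on the log2 scale (SE 0.27, adjusted p = 0.037, limma). The call was lost without sham bound replicate 2 (adjusted p = 0.17) and without day 7 bound replicate 1 (0.094), 2 (0.056) or 3 (0.12). At day 2 the log2 fold was -0.63 (adjusted p = 0.0998, limma), and -0.83 (adjusted p = 0.017) after median-ratio rescaling. Unbound means stayed between 2.88 ± 0.67 RPKM at day 2 and 3.65 ± 0.70 RPKM at day 14 (SD, n = 3), and no unbound comparison was called. Podocyte and principal cell markers were higher in bound than in unbound RNA of sham, as Smad3 and Smad7 were. In bound RNA they were lower at day 7 than in sham, as given for Bmp7 and as Smad7 was. Between fractions at day 7 and day 14, the median log2 difference was -0.17 and 0.11 for principal cell markers. For podocyte markers it was 0.77 and 0.52. Smad3 and Smad7 were higher in bound RNA in every number pair of these times. The part of these cells was not tested.

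Tgfbi encodes a secreted matrix protein and is named for its induction by TGF-beta. In bound RNA it was at 4.73, 2.80 and 0.469 RPKM in sham and at 8.65, 29.3 and 9.02 RPKM at day 2. At day 7 it was at 9.31, 6.51 and 7.79 RPKM, and at day 14 at 4.18, 4.07 and 41.9 RPKM. The libraries of day 2 and day 7 were above sham, and at day 14 mouse 3 alone was. Tgfbi rose at day 2 (log2 fold 2.42, SE 0.72, adjusted p = 0.022, limma), with the call lost without sham bound replicate 3 (1.73, adjusted p = 0.096) or day 2 bound replicate 2 (1.87, adjusted p = 0.13). It was also lost when limma was fitted to the day 2 and sham bound libraries alone (adjusted p = 0.11). The folds at day 7 (1.70, adjusted p = 0.094, limma) and day 14 (1.92, adjusted p = 0.078) did not pass, and the latter was 0.85 without mouse 3.

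In unbound RNA Tgfbi was at 5.72, 6.00 and 2.86 RPKM in sham. It was at 9.66, 27.2 and 15.1 RPKM at day 2, at 15.8, 14.7 and 22.1 RPKM at day 7 and at 13.6, 8.18 and 34.3 RPKM at day 14. Every unbound library after injury was above sham, yet log2 folds of 1.67, 1.79 and 1.66 had adjusted p of 0.12, 0.24 and 0.20 in limma and did not pass. With limma fitted to the compared unbound groups alone, the folds at day 2 and day 7 passed (adjusted p = 0.022 and 0.0085). Which fraction holds a Tgfbi call at day 2 thus depends on the libraries that share the estimate of spread. In sham, the log2 difference of bound from unbound RNA was -1.01, and at day 7 it was -1.1. Neither passed without pairing (adjusted p = 0.32 and 0.47, limma), and both passed with the library number as a block (adjusted p = 0.024 and 0.043).

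Markers of macrophages, neutrophils and stroma were high in some of the libraries in which Tgfbi, Inhba, Tgfb3 and Tgfbr1 were high. All 3 marker sums of day 14 mouse 3 were above those of the other day 14 mice. The median macrophage marker sum was higher at day 7 than at day 2 in both fractions. The group means of Tgfbr1 and Inhba were lower at day 7 in both. For Tgfb3 and Tgfbi they were lower in bound RNA (1.19 to 1.07 and 15.6 to 7.87 RPKM). In unbound RNA these 2 were higher at day 7 (0.829 to 1.18 and 17.3 to 17.5 RPKM). The 8 macrophage markers summed to 37.1 to 57.9 RPKM in sham bound, 83.2 to 232.1 at day 2, 183.3 to 287.8 at day 7 and 113 to 1731 at day 14. In unbound RNA the sums were 60.6 to 83.1, 105 to 225.1, 343.1 to 802.8 and 297.8 to 1760 RPKM. Of the 8, 2 rose in bound RNA at day 2, 5 at day 7 and 4 at day 14, and in unbound RNA 1 of 8 rose at each time. Of all tested genes, 13.3%, 15.2% and 8.71% rose in bound RNA at these times, and 9.76%, 0.911% and 0.984% in unbound RNA. The 8 stromal markers summed to 46.2 to 53.8 RPKM in sham bound and 138.4 to 369.1 RPKM at day 2, with 3 of 8 called higher. In unbound RNA they summed to 38.9 to 54.7 RPKM in sham and 182.3 to 356.1 RPKM at day 2, also with 3 of 8 called higher. The 5 neutrophil markers summed to 1.94 to 12.2 RPKM in sham bound and 18.6 to 103 RPKM at day 2, and to 10.4 to 54.6 and 89.4 to 275.5 RPKM in unbound RNA. Of the 4 tested, 4 rose in bound and 3 in unbound RNA at day 2, the time of the calls of Tgfbr1, Tgfbi, Inhba and Tgfbr2, and 0 at day 7 or day 14. At day 14 the stromal markers summed to 510.2 RPKM in bound RNA of mouse 3 and to 72.0 and 42.3 RPKM in the other mice. Of these markers, 0 were at 0 throughout a group, and their part in these results was not tested.

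**Figure D4:**
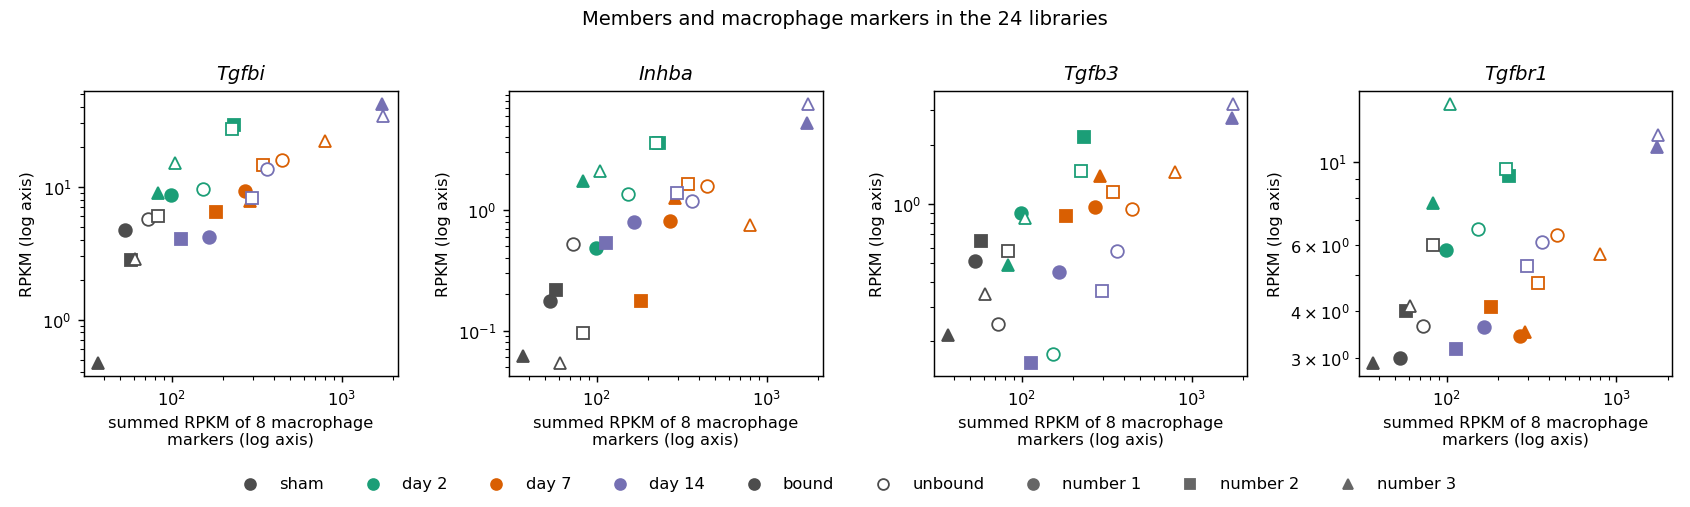
RPKM of Tgfbi, Inhba, Tgfb3 and Tgfbr1 (y axis, log) against the summed RPKM of 8 macrophage markers (x axis, log) in the 24 libraries, coloured by time, filled for bound RNA and open for unbound, with the symbol giving the library number. The pair of day 14 mouse 3 lies at the far right in each panel, at 1731 and 1760 RPKM of markers. Day 2 libraries, at 83.2 to 232.1 RPKM of markers, lie above all sham libraries for Tgfbi. For Inhba, Tgfb3 and Tgfbr1 some of them lie within the reach of sham.

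The rest of the pathway was followed with 70 other genes in 7 roles, of which 60 could be tested. In bound RNA, 13 rose and 1 fell at day 2, beside 13.3% and 6.48% of all tested genes. At day 7, 8 rose and 1 fell (15.2% and 7.55%), and at day 14, 7 rose and 0 fell (8.71% and 4.58%). The median log2 folds of the 60 genes were 0.45, 0.11 and 0.41. In unbound RNA, 12 rose at day 2, 1 at day 7 and 2 at day 14 (9.76%, 0.911% and 0.984% of all tested genes). There 0 fell, and the medians were 0.39, 0.35 and 0.58. The shares of all genes called and the medians of all genes are those given for the members.

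Ligands came first. Gdf15, a stress-induced member of the family, went from 4.94 ± 1.22 RPKM in sham bound to 26.2 ± 12.5 RPKM at day 2 (SD, n = 3) and rose by a log2 fold of 2.23 (SE 0.34, adjusted p = 0.00011, limma). It rose in unbound RNA too, from 2.22 ± 0.97 to 11.6 ± 1.91 RPKM (log2 fold 2.22, adjusted p = 0.00015, limma), and fell there by 1.38 from day 2 to day 7 (adjusted p = 0.024). At day 7 it was still higher in bound RNA (1.54, adjusted p = 0.0032, limma), and the difference of bound from unbound RNA was 1.75 (adjusted p = 0.0070). In sham bound RNA was higher too (1.04, adjusted p = 0.025, limma), and at day 2 it was with the library number as a block (1.05, adjusted p = 0.032). Bmp6, another BMP ligand, rose in bound RNA at day 7 (6.28 ± 2.39 RPKM in sham, 14.2 ± 6.62 at day 7, log2 fold 1.09, adjusted p = 0.019, limma). Inha, which encodes the inhibin alpha subunit, rose in bound RNA at day 14 (1.32, adjusted p = 0.037, limma), a call lost without mouse 3 (1.04, adjusted p = 0.061). It was also lost without any 1 sham bound library or day 14 bound replicate 1 (adjusted p up to 0.11). The Bmp6 call was lost without sham bound replicate 3 or day 7 bound replicate 3 (up to 0.13). The fall of Gdf15 was lost without day 2 unbound replicate 2 or 3 or any day 7 unbound library (up to 0.12), the sham difference without sham bound replicate 2 or 3 or sham unbound replicate 3 (up to 0.15), and the day 7 difference without day 7 unbound replicate 2 (0.053). The other Gdf15 calls against sham held without any 1 library.

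Genes of latency and activation followed. Itgav and Itgb6 encode the subunits of integrin alpha v beta 6, which releases TGF-beta from its latent complex. Itgav rose at day 2 in bound RNA (log2 fold 1.24, adjusted p = 0.0026, limma) and in unbound RNA (0.88, adjusted p = 0.028). Itgb6 rose in bound RNA at day 2 (0.73, adjusted p = 0.041, limma) and at day 7 (1.30, adjusted p = 0.0013), with means of 10.9 ± 2.85 RPKM in sham and 27.5 ± 7.61 RPKM at day 7. The protease gene Bmp1 rose in bound RNA at all 3 times (1.75, 1.71 and 1.81, adjusted p = 0.034, 0.035 and 0.040, limma). In sham, Itgav, Itgb6 and Itgb8 were lower in bound than in unbound RNA (log2 differences -1.099, -0.75 and -0.94) (adjusted p = 0.0045, 0.028 and 0.0056, limma). Held without any 1 library were Itgav in bound RNA at day 2, Itgb6 at day 7 and the sham differences of Itgav and Itgb8. Itgav in unbound RNA was lost without sham unbound replicate 1 or 3 or day 2 unbound replicate 2 or 3 (adjusted p up to 0.14). Itgb6 at day 2 was lost without sham bound replicate 2 or 3 or day 2 bound replicate 1 or 2 (up to 0.18), and its sham difference without sham bound replicate 3 or sham unbound replicate 1 (up to 0.13). Each Bmp1 call was lost without sham bound replicate 1 or 3, and also without day 2 bound replicate 2 or 3 (up to 0.17), any day 7 bound library (up to 0.12), or sham bound replicate 2 and day 14 bound replicate 1 or 3 (up to 0.17).

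Of the 10 other receptor genes tested, 1 rose against sham: Bmpr1a, a type I BMP receptor gene, in bound RNA at day 2 (log2 fold 0.67, adjusted p = 0.046, limma). Acvr2b, a type II activin receptor gene, was higher in bound RNA of sham (1.46, adjusted p = 0.024, limma), with 28.5, 34.7 and 6.11 RPKM there, so that 1 library lay far below the others. Of the 4 Smads tested, Smad1, which carries BMP signals, rose in unbound RNA at day 2 (1.03, adjusted p = 0.046, limma). The Bmpr1a call was lost without any library but day 2 bound replicate 1 (adjusted p up to 0.22), and that of Smad1 without any but day 2 unbound replicate 1 (up to 0.18). The Acvr2b call was lost without sham bound replicate 1 or 2 or sham unbound replicate 3 (up to 0.15), and without sham bound replicate 3 the difference was 2.22.

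Among extracellular inhibitors, Fst encodes follistatin, which binds activins. In bound RNA it went from 0.914 ± 0.34 RPKM in sham to 3.46 ± 0.92 RPKM at day 2 (log2 fold 1.49, adjusted p = 0.0059, limma) and 4.31 ± 2.25 RPKM at day 7 (1.69, adjusted p = 0.0026). It rose at day 14 as well (1.19, adjusted p = 0.032, limma), a call lost without mouse 3 (0.99, adjusted p = 0.075). In unbound RNA Fst rose at day 2 (1.22, adjusted p = 0.024, limma), as did Fstl1 (1.83, adjusted p = 0.043). Kcp, which encodes an enhancer of BMP signalling listed here with the extracellular regulators, was the 1 gene to fall in bound RNA at day 2 (-0.74, adjusted p = 0.023, limma). Sostdc1, a BMP antagonist known to act on Bmp7 in kidney, was lower in bound than in unbound RNA at day 7 (32.2 ± 6.47 against 80.8 ± 14.5 RPKM, log2 difference -1.32, adjusted p = 0.0045, limma) and at day 14 (-1.34, adjusted p = 0.0054). Both Sostdc1 calls, and those of Fst in bound RNA at day 2 and day 7, held without any 1 library. Fst at day 14 was also lost without sham bound replicate 1 or 3 or day 14 bound replicate 1 (adjusted p up to 0.11), and in unbound RNA without sham unbound replicate 1 or 3 or day 2 unbound replicate 2 or 3 (up to 0.1). Fstl1 was lost without any 1 of its 6 libraries (up to 0.17), and Kcp without sham bound replicate 1 or 2 or day 2 bound replicate 3 (up to 0.095).

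Inside the cell, the Smad corepressor gene Tgif1 rose in bound RNA at each time, day 2 (log2 fold 1.18, adjusted p = 0.023, limma), day 7 (1.53, adjusted p = 0.0047) and day 14 (1.103, adjusted p = 0.044). The day 14 call was lost without mouse 3 (0.85, adjusted p = 0.088, limma). Smad6, the second inhibitory Smad, fell in bound RNA at day 7 by 0.91 (adjusted p = 0.045, limma). In sham, the ubiquitin ligase genes Smurf1 and Nedd4l and the corepressor gene Ski were higher in bound than in unbound RNA by 1.47, 1.12 and 1.02 (adjusted p = 0.00059, 0.011 and 0.0078, limma). Smurf1 also rose in unbound RNA at day 2 (0.79, adjusted p = 0.0499, limma). The 3 sham differences and Tgif1 at day 7 held without any 1 library. Smurf1 at day 2 was lost without any 1 of its 6 libraries (adjusted p up to 0.19), and Smad6 without any but day 7 bound replicate 2 (up to 0.17). Tgif1 was lost at day 2 without sham bound replicate 1 or 2 or day 2 bound replicate 2 or 3 (up to 0.12), and at day 14 also without sham bound replicate 1 or 2 or day 14 bound replicate 1 (up to 0.14).

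Targets held the largest changes. In bound RNA at day 2, 6 of 13 rose, where 13.3% of all tested genes were higher. In unbound RNA 6 of 13 rose as well, where 9.76% were higher. Ctgf, which encodes a matricellular protein, was at 3.01 ± 1.13 RPKM in sham bound and 20.3 ± 10.5 RPKM at day 2, rose there by 2.47 (adjusted p = 0.0027, limma) and fell back by 2.68 from day 2 to day 7 (adjusted p = 0.0042). Id1, a BMP target, rose in unbound RNA at day 2 and fell by day 7 in bound (-1.53, adjusted p = 0.040, limma) and unbound RNA (-1.71, adjusted p = 0.034). Tsc22d1 rose in unbound RNA at day 2, with 18.5 ± 2.77 RPKM in sham and 67.1 ± 6.89 RPKM at day 2 (1.84, adjusted p = 0.0047, limma). Ctgf and Tsc22d1 held these calls without any 1 library. Id1 from day 2 to day 7 was lost in bound RNA without replicate 2 or 3 of either day (adjusted p up to 0.16) and in unbound RNA without any library but day 7 unbound replicate 1 (up to 0.18).

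The matrix genes among the targets were called as follows. Col1a1, a fibrillar collagen gene, rose in bound RNA on the log2 scale by 5.01 at day 2, 3.02 at day 7 and 3.41 at day 14 (adjusted p = 0.00027, 0.012 and 0.012, limma) and in unbound RNA by 3.85, 3.47 and 4.29 (adjusted p = 0.0033, 0.045 and 0.015). Fn1, the fibronectin gene, rose in bound RNA at day 2 (2.18, adjusted p = 0.027, limma), day 7 (2.41, adjusted p = 0.015) and day 14 (2.98, adjusted p = 0.0083). Col1a2, which encodes the partner chain of Col1a1, rose at day 2 in bound (2.51, adjusted p = 0.021, limma) and unbound RNA (2.83, adjusted p = 0.013) and at day 14 in bound (2.34, adjusted p = 0.041) and unbound RNA (3.20, adjusted p = 0.044), and did not pass at day 7. The day 2 values of Fn1 and Col1a2 were added after they were seen, outside the rule for named genes. The Col1a2 call at day 14 in bound RNA was lost without sham bound replicate 1 or 2 or day 14 bound replicate 1 or 3, and that in unbound RNA without any library but day 14 unbound replicate 2 (adjusted p up to 0.19 and 0.42, limma). Without mouse 3 the day 14 folds were 2.26 for Col1a1 and 2.02 for Fn1 in bound RNA and 3.42 for Col1a1 in unbound RNA, and all 3 passed when it was left out of both fractions. The unbound Col1a1 call at day 14 was lost without day 14 unbound replicate 3 alone or any 1 sham unbound library (adjusted p up to 0.18), and that at day 7 without any 1 of its 6 libraries (up to 0.18). In bound RNA at day 7, Col1a1 was lost without day 7 bound replicate 1 (up to 0.064) and Fn1 without that library or sham bound replicate 1 (up to 0.073). The fold of Col1a1 in bound RNA at day 2 was 4.23 without day 2 bound replicate 2 and 5.75 without replicate 3. Stromal marker sums, given with Tgfbi, were high in the same libraries, and their part was not tested.

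Between fractions, 6 of the 60 were higher and 3 lower in bound RNA of sham, 0 and 0 at day 2, 1 and 1 at day 7 and 0 and 1 at day 14 by limma without pairing. Of all tested genes, 27.6%, 1.68%, 2.35% and 0.816% were called in the same order. With the library number as a block the pathway counts were 12 and 6, 7 and 1, 2 and 6, and 0 and 2. The block called 39.3%, 9.50%, 11.4% and 2.62% of all genes there, and nothing is read from the counts about the pathway. The change against sham at day 7 differed between fractions for 4 of the 60 with the block and for 0 without it, beside 5.26% and 0.146% of all genes. Bmp6 (1.101, adjusted p = 0.031, limma) and Itgb6 (0.86, adjusted p = 0.043) changed more upward in bound RNA. Fstl1 (-1.57, adjusted p = 0.044, limma) and Smurf1 (-0.9997, adjusted p = 0.047) changed more downward there, and Smurf1 did so at day 14 (-1.08, adjusted p = 0.035). Smurf1 was 1 of the 60 at day 14, where the block called 6.28% of all genes.

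**Figure D5:**
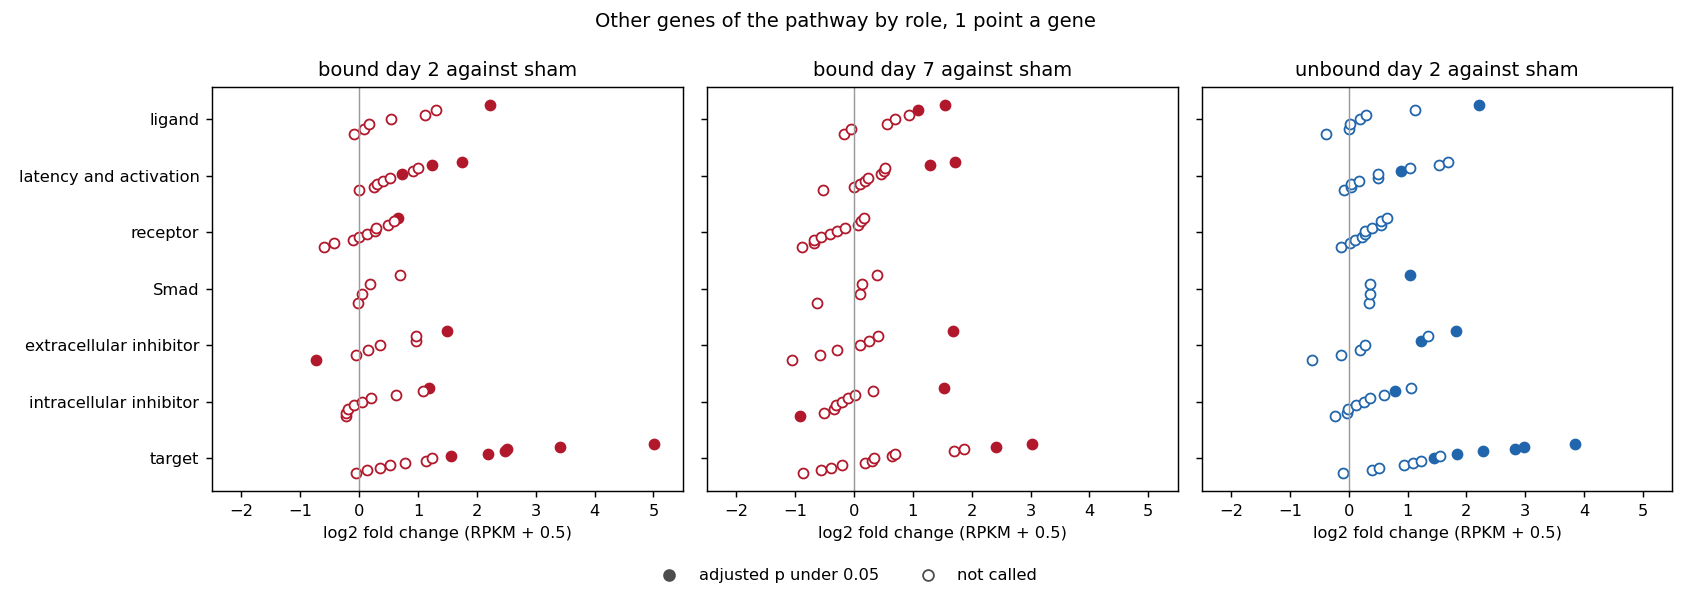
Log2 fold change (x axis, log2(RPKM + 0.5) scale) of the 60 other tested genes of the pathway by role (y axis, spread within a role for display only) in 3 comparisons with sham, filled where the adjusted p was under 0.05. Targets reach the largest folds, 5.01 for Col1a1 in bound RNA at day 2.

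Over the 8 groups, levels of most members ran in an unbroken order, with neighbouring groups overlapping in their libraries. The exceptions were Bmp7, whose sham bound libraries lay above those of the next group, sham unbound, and Tgfbi, whose day 7 bound libraries lay above those of sham unbound. Mean levels over all 24 libraries were 15.5 RPKM for Tgfbr2, 12.7 for Tgfbi, 10.9 for Bmp7, 9.66 for Smad3, 6.08 for Tgfbr1, 4.33 for Smad7, 2.02 for Tgfb2, 1.54 for Inhba, 0.953 for Tgfb3 and 0.355 for Tgfb1.

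The genes most like each member were taken as those with the highest Pearson r over the 8 group means of log2(RPKM + 0.5), out of 8264 or 8265 candidates, as a description with no test. For Tgfb2 these were Acaa1a (r = 0.977), Thap3 and Vwa1. For Bmp7 they were Dhtkd1 (0.969), Kdr and Zfp871, and for Inhba they were Elf1 (0.991), Hnrnpdl and Itpripl2. Tgfbi was most like Loxl1 (0.987), Smagp and Fiz1, and Tgfbr1 like Actr2 (0.989), Cpd and Mfsd14a. Smad3 was most like Bcl9l (0.988), Mllt1 and Zc3h4, and Smad7 like Fpgs (0.985), Pde4dip and Irs2.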

How the data were processed

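The submitters' processing notes name STAR 2.0.4b, featureCounts 1.4.5, Subread and edgeR, without their roles, and no genome build. The deposited table holds RPKM values made by the authors, 1 column a library, with 41831 lines for 40750 genes. The 1081 repeated lines were identical and dropped.

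A minimum of 1 RPKM in 3 libraries left 13721 genes to test. In R 4.3.3, limma 3.58.1 was fitted to log2(RPKM + 0.5) over 8 group means and all 24 libraries, with a variance trend in abundance, in 17 comparisons, and was tested on simulated data. Calls needed a Benjamini-Hochberg adjusted p under 0.05 within a comparison. The pseudocount understates changes of low genes.

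Depth was inferred from the spacing of low values with exon lengths of GENCODE M21: whole numbers of reads (tolerance 0.02) were found for 73.7% to 78.1% of values under about 50 reads, against 4% by chance. RPKM were therefore not turned into counts.

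Library numbers were checked as pairs, since the labels do not say outright that libraries of a number come from the same mouse. Bound and unbound libraries of a number deviated together in 12 of 12 pairs (r from 0.268 to 0.67 across genes). The 24 pairs of other numbers had r from -0.598 to 0.309, so the ranges overlap. Values with the number as a block are given for fractions on this basis. The labels call the 3 samples of a group biological replicates.

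Named pathway genes are those called in a role with the smallest adjusted p, at most 3 a role and comparison. Members and lists were chosen with earlier results of these data known. The alternatives tried were other pseudocounts, no filter, rescaled or quantile-normalized libraries, fits to the compared groups alone, a replicate block and leaving out libraries. Between times, the replicate block was the library number, fitted within the libraries of the same fraction and without those of the other. Between fractions and for the interactions, the block was each mouse, given by time and number, over all 24 libraries. One listed target gene is counted but not reported by name here.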

Additional observations from a re-analysis of the deposited data

Results flagged for a closer look

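The change of Tgfb2 at day 7 against sham differed between fractions in the paired fit: it was larger in bound than in unbound RNA by 1.23 on the log2 scale (adjusted p = 0.0493 with the library number as a block, limma, 722 genes called of 13721). Without the block the same difference had an adjusted p of 0.30. The direction was higher in bound RNA in 3 of 3 numbers at day 7 and lower in 3 of 3 in sham.

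For 4 other genes of the pathway the change at day 7 differed between fractions with the same block and not without it (limma). These 4 of 60 lie near the 5.26% of all tested genes called there, and nothing is read from their number. It was larger in bound RNA for Bmp6 by 1.1 (adjusted p = 0.031, and 0.23 without the block) and for Itgb6 by 0.865 (0.043 and 0.23). The difference was -1.57 for Fstl1 (0.044 and 0.35) and -1 for Smurf1 (0.047 and 0.20). For Smurf1 it was -1.08 at day 14 (0.035 and 0.18), 1 of 60 where the block called 6.28% of all genes.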

How the results depend on the processing

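Of the 17 counts of called members, those of bound day 7 against sham and bound day 7 against day 2 stayed within 1.5 times under every alternative, library left out included, and counts of 0 not named here stayed at 0. In bound RNA at day 2 against sham (2 called) the count was 0 with no filter, 4 with median-ratio rescaling, 4 with quantile normalization, 0 with the compared groups alone, 0 with the replicate block and 0 to 3 when 1 library was left out. The 2 calls added by rescaling were falls of Bmp7 and Smad7. In bound RNA at day 14 (2 called) it was 0 with the groups alone, 0 with the block and 1 to 3 without 1 library. In unbound RNA at day 2 (2 called) it was 1 with a pseudocount of 1, 1 with no filter, 4 with the groups alone, 4 with the block and 0 to 4 without 1 library. In unbound RNA at day 7 (0 called) it was 4 with the groups alone, higher for Tgfb3, Inhba, Tgfbr2 and Tgfbi. From day 2 to day 7 in unbound RNA (1 called) it was 0 with a pseudocount of 1, with no filter, with the block and without any 1 library. Between fractions it was 1 in sham with the groups alone and 1 to 2 without 1 library (2 called), 1 at day 2 with the block (0 called) and 1 at day 7 with the groups alone and with the block (0 called). For the interaction at day 7 (0 called) it was 1 with the block. Cause was not tested. Leaving out 1 library leaves a group of 2. The block pairs mice only between fractions. Between times, the fit with the block also left out the libraries of the other fraction, so the effect of the block alone was not tested. Over all genes that fit took the share called in bound RNA at day 14 from 13.29% to 0.940%. In unbound RNA at day 2 the share went from 14.79% to 24.65%. Between times, same-numbered libraries correlated at -0.367 to 0.369. Every pair was over 0.1 in 1 comparison, day 14 with day 7 in bound RNA, where 0 members were called either way.

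Leaving day 14 mouse 3 out of both fractions was chosen after seeing the data, and gave 3 called members in bound RNA at day 14, Bmp7, Smad7 and Tgfb2. Over single members, 376 of 416 values under alternatives other than leaving out a library kept direction and side of the threshold, 19 lost a call, 21 gained one and 0 reversed. Leaving out 1 library kept 301 of 336, with 31 lost, 4 gained and 0 reversed. Of 55 calls named for other pathway genes, 19 held under every alternative and 36 were lost under at least 1. Low members rest on few reads, which limits what can be seen of Tgfb1, Tgfb3 and Inhba.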
